A study of Mus musculus with 12 samples.

Results

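*Cybrd1*, which encodes a ferric reductase of the cytochrome b561 family, and 9 other genes of iron handling (*Hamp*, *Hamp2*, *Tfrc*, *Tfr2*, *Trf*, *Slc40a1*, *Slc11a2*, *Fth1* and *Hfe*) were examined in livers of term mouse fetuses with and without PPARα (gene *Ppara*), a nuclear receptor that fatty acids activate. The 10 genes were listed by name and taken from a table of 19938 genes, and each was read by 1 probeset that the array's annotation ties to a single gene. Whole livers were collected by cesarean section at embryonic day E19.5, 6 from *Ppara*-/- and 6 from *Ppara*+/+ fetuses, with no treatment named. Each liver was hybridized to its own Affymetrix Mouse Gene ST array. Both genotypes came from matings of *Ppara*+/- parents, chosen so that the 2 genotypes shared litters and uterine surroundings. The null allele was constitutive, acquired from a mouse repository, so that the loss was not limited to hepatocytes or to the fetal liver. The labels give the strain as SV129, whereas the study's methods name a C57BL/6 background, and arrays of each genotype drew on fewer litters than livers, so that some livers shared a litter. All RNA had an integrity number above 8.

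The liver is the body's main regulator of iron. Hepatocytes secrete hepcidin, the product of *Hamp*, which binds ferroportin (*Slc40a1*), the only known cellular iron exporter, and causes its degradation, so that less iron enters the plasma from gut, macrophages and liver. Plasma iron travels on transferrin (*Trf*) and enters cells through transferrin receptor 1 (*Tfrc*), which is abundant on erythroid precursors, while transferrin receptor 2 (*Tfr2*) and the MHC class I-like protein Hfe take part in sensing transferrin iron upstream of hepcidin. The fetal liver before birth is still a site of blood formation, and whole liver RNA therefore mixes hepatocytes with erythroid and other blood cells. In such bulk RNA, fewer cells of a type and less RNA per cell cannot be told apart.

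The array values are log2 signals, on which a difference of 1 is a doubling, and differences are given as *Ppara*-/- minus *Ppara*+/+. The *Ppara* signal was 9.83 ± 0.09 in *Ppara*-/- livers and 10.84 ± 0.10 in *Ppara*+/+ livers (SD, n = 6 each), with all 6 *Ppara*-/- livers below every *Ppara*+/+ liver (difference -1.01, SE 0.06, limma adjusted p = 3.6e-08). The place of its probes relative to the disrupted part of the gene was not analysed here. Hepatocyte identity of the tissue was plain in both genotypes, with *Alb*, the serum albumin gene, at 13.56 in *Ppara*-/- and 13.55 in *Ppara*+/+ livers. Erythroid markers were also present, and 0 of 16 measured ones passed the test (limma, Benjamini-Hochberg adjusted p under 0.05, the threshold used throughout; 4 at an unadjusted p under 0.05). By *Xist* and genes of the Y chromosome, the *Ppara*-/- fetuses were 5 females and 1 male, and the *Ppara*+/+ fetuses 3 females and 3 males.

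Of the 10 iron handling genes, 1 rose in *Ppara*-/- livers (*Cybrd1*), 0 fell and 9 did not pass the test, where 3.42% of all genes were called higher, 3.82% lower and 7.24% either way. An unadjusted p under 0.05 was reached by 4 of the 10 (*Cybrd1*, *Hamp*, *Hamp2* and *Tfr2*), against 20.9% of all genes. The median difference of the 10 was 0.01 and the median size of their differences 0.06, beside 0.01 and 0.07 over all 19938 genes. The differences were thus small for 6 of the 10 and large for *Cybrd1* and *Hamp*, as the plot of differences with their intervals shows.

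**Figure D1:**
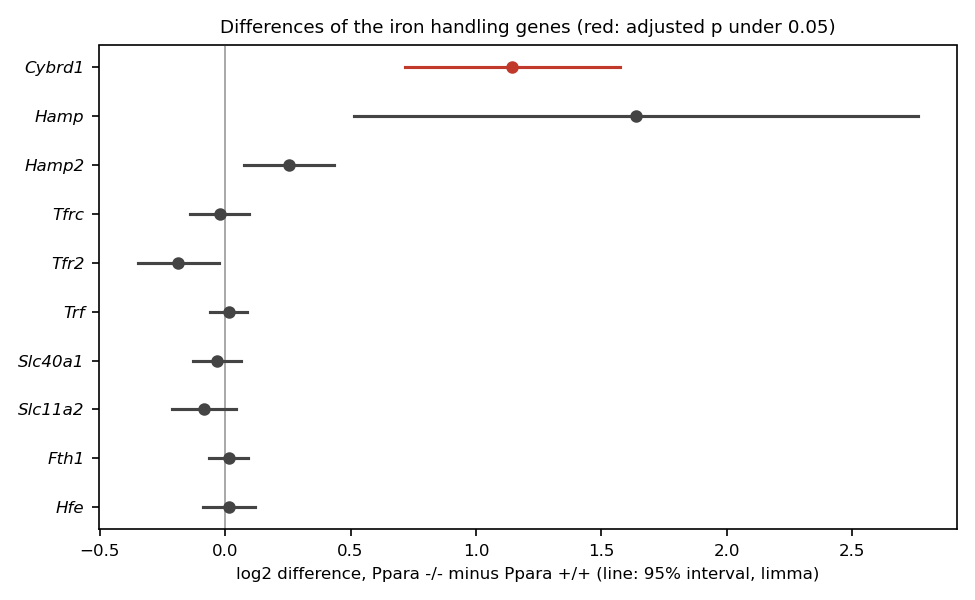
Difference in log2 signal, Ppara-/- minus Ppara+/+ livers (n = 6 each), for each of the 10 iron handling genes, with points for limma estimates and lines for 95% intervals. The interval of Cybrd1 runs between 0.72 and 1.57, that of Hamp is the widest, between 0.51 and 2.76, and those of Tfrc, Trf, Slc40a1, Slc11a2, Fth1 and Hfe include 0.

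*Cybrd1* (probeset 10472757) encodes duodenal cytochrome b, a membrane reductase best known from the brush border of the duodenum, where it reduces ferric iron and is raised by iron deficiency and hypoxia. Its log2 signal was 7.58, 8.82, 8.61, 8.75, 8.69 and 8.56 in *Ppara*-/- mice 1 to 6, against 6.85, 7.32, 7.36, 7.23, 7.44 and 7.94 in *Ppara*+/+ mice 1 to 6. In 5 of 6 *Ppara*-/- livers the value exceeded every *Ppara*+/+ value, and *Ppara*-/- mouse 1 overlapped with *Ppara*+/+ mouse 6 alone. At least 5 of 6 *Ppara*-/- livers above all *Ppara*+/+ livers occurred in 6.42% of all genes. The means were 8.50 ± 0.46 in *Ppara*-/- and 7.36 ± 0.35 in *Ppara*+/+ livers (SD, n = 6 each), a difference of 1.15 (SE 0.20, 95% interval between 0.72 and 1.57) or 2.21-fold, with a limma adjusted p of 0.0032. Among the 682 genes called higher in *Ppara*-/- livers, *Cybrd1* had the eighth largest rise.

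The difference was called in 28 of 31 other settings of the analysis, and it ranged from 0.51 to 1.33 over them. The settings reuse the same livers, and those that treat probesets differently could not change the values of a gene with 1 probeset. Their number is therefore not a count of independent tests. The *Cybrd1* difference was above 1 whichever liver was left out (range between 1.04 and 1.33, with limma adjusted p between 4.3e-05 and 0.0107). The call was lost in the exact Mann-Whitney test, in which *Cybrd1* had p = 0.0043 and an adjusted p of 0.077 and no gene of the array passed. Within the 6 lowest animal numbers of the labels, *Cybrd1* averaged 8.20 in 2 *Ppara*-/- livers and 7.19 in 4 *Ppara*+/+ livers (difference 1.01, limma adjusted p = 0.227), and within the 6 highest it averaged 8.65 in 4 *Ppara*-/- livers and 7.69 in 2 *Ppara*+/+ livers (difference 0.96, limma adjusted p = 0.0155). Among the females, 5 *Ppara*-/- livers averaged 8.44 and 3 *Ppara*+/+ livers 7.41. The males were 1 *Ppara*-/- liver at 8.82 and 3 *Ppara*+/+ livers at a mean of 7.31, and a sex score as covariate left a difference of 1.17 (limma adjusted p = 0.0086).

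**Figure D2:**
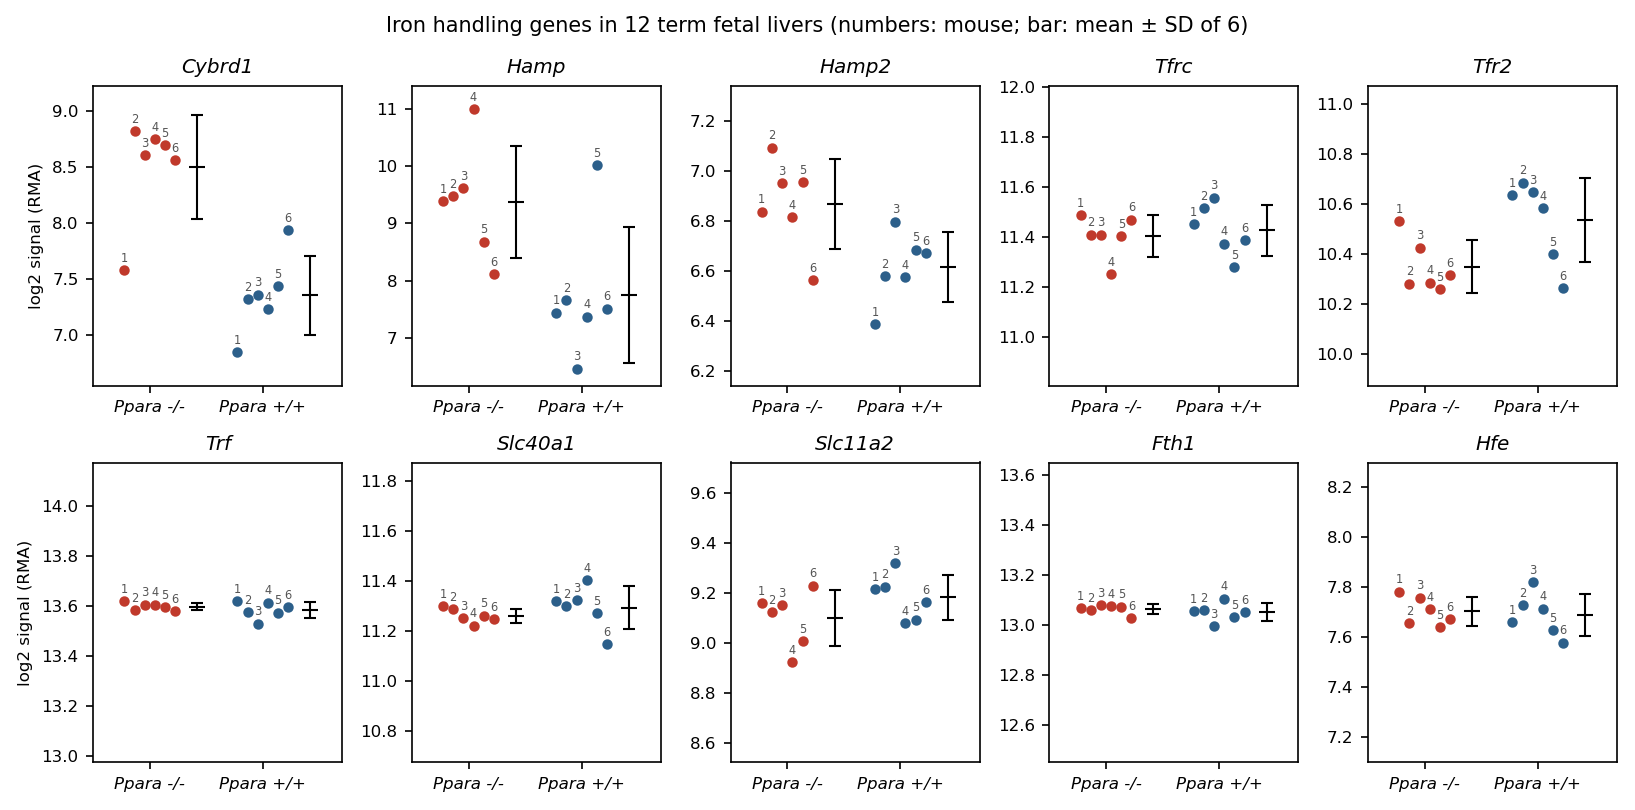
Log2 signal of each of the 10 iron handling genes in 6 Ppara-/- (left, red) and 6 Ppara+/+ (right, blue) livers, 1 point per liver with its mouse number, and bars for the mean ± SD. The y axes differ between genes. Cybrd1 lies between 8.56 and 8.82 in 5 Ppara-/- livers, above the Ppara+/+ range of 6.85 to 7.94, while Hamp spreads most within both genotypes.

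The liver that overlapped, *Ppara*-/- mouse 1, also stood nearest to the *Ppara*+/+ livers in other genes. Of the 1443 genes called over the whole array it was the *Ppara*-/- liver closest to the *Ppara*+/+ mean in 901 (62.4%), and *Ppara*+/+ mouse 6 was the *Ppara*+/+ liver closest to the *Ppara*-/- mean in 808 (56.0%). Its *Ppara* signal, 9.84, lay among those of the other *Ppara*-/- livers (9.66 to 9.94). Of the hepatocyte markers 1 of 13 was called, *Tat*, which encodes tyrosine aminotransferase, an enzyme of amino acid breakdown that is induced in the liver around birth. The *Tat* signal was 10.08 ± 0.89 in *Ppara*-/- livers and 11.69 ± 0.83 in *Ppara*+/+ livers (SD, n = 6 each), a difference of -1.61 (limma adjusted p = 0.031). It was 11.72 in *Ppara*-/- mouse 1 and 9.17 to 10.37 in the other *Ppara*-/- livers, against 10.98 and 10.34 in *Ppara*+/+ mice 5 and 6 and 12.10 to 12.33 in the other *Ppara*+/+ livers. The 5 *Ppara*-/- livers with high *Cybrd1* all had low *Tat*, as did *Ppara*+/+ mouse 6, whose *Cybrd1* was the highest of its genotype. The 2 signals ran opposite to each other over the 12 livers (Pearson r = -0.94, and -0.89 for deviations from the genotype means). By the labels, the animal number of *Ppara*-/- mouse 1 lay among those of *Ppara*+/+ mice 1 to 4. The other *Ppara*-/- livers were numbered above these, and *Ppara*+/+ mice 5 and 6 above all *Ppara*-/- livers. The livers nearest the other genotype in *Tat* thus also stood apart from their own genotype in number. What the numbers stand for is not in the labels. Their part was not tested beyond the covariate, block and split settings.

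The mean of the 13 hepatocyte markers was 12.72 to 12.92 in *Ppara*-/- and 12.80 to 12.99 in *Ppara*+/+ livers. Without *Tat* it was 12.99 to 13.03 in *Ppara*-/- and 13.00 to 13.05 in *Ppara*+/+ livers. With the 13-marker mean as covariate the *Cybrd1* difference was 0.51 (limma adjusted p = 0.095), and with *Tat* left out of that mean it was 1.07 (limma adjusted p = 0.0032). Most of the other markers lay near the top of the array's range, for example *Alb*, *Ttr*, *Ahsg* and *Apoa1* at 13.23 to 13.56. Lower ones were *Hnf4a* (11.38 in *Ppara*-/- and 11.44 in *Ppara*+/+ livers), *Fga* (12.38 and 12.34) and *Apob* (12.61 and 12.60). Whether a mean without *Tat* can follow the share of hepatocytes was not tested, and the difference left with it as covariate does not settle the part of that share. The endothelial mean had r = -0.74 with *Cybrd1* (-0.64 for deviations). The erythroid mean was 10.59 to 10.76 in *Ppara*-/- and 10.43 to 10.72 in *Ppara*+/+ livers, and as covariate it left a *Cybrd1* difference of 1.12 (limma adjusted p = 0.0116). The macrophage mean, 8.83 to 9.0 in *Ppara*-/- and 8.82 to 8.94 in *Ppara*+/+ livers, left 1.17 (limma adjusted p = 0.0045). Beyond these covariates, the part of what *Tat* tracks in the *Cybrd1* difference was not tested.

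The genes whose log2 signals followed *Cybrd1* most closely over the 12 livers were *Plgrkt* (r = 0.98), a plasminogen receptor, *Derl2* (r = 0.98), which acts in degradation of proteins from the endoplasmic reticulum, *Sema6b* (r = 0.98), a semaphorin, *Gga2* (r = 0.97), a Golgi sorting adaptor, and *B3galnt2* (r = 0.97), a glycosyltransferase. All of these 5 passed the test and were higher in *Ppara*-/- livers, by 0.48 to 0.78. Those calls add no support, because the r values include the genotype difference of *Cybrd1*, which the genes were thus picked to share. After each genotype's mean was subtracted, the closest were *Rhobtb3*, *Necap1* and *Tmem218* (each r = 0.96) and *Plgrkt* and *Gga2* (each r = 0.95). Of these, *Necap1* (difference 0.03, limma adjusted p = 0.864) and *Tmem218* (0.22, limma adjusted p = 0.261) did not pass the test, whereas *Rhobtb3* did (0.41, limma adjusted p = 0.0366). Such correlations describe 12 livers of 2 genotypes, some from shared litters, and were chosen as the highest of the array. Among the iron handling genes, the closest to *Cybrd1* in size was *Tfr2*, with an opposite course (r = -0.84, and -0.78 for deviations).

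The promoters of *Cybrd1* and of the 2 hepcidin genes are printed because those 3 genes had the largest differences. Each is the 250 bases that precede the start of the gene in RefSeq (assembly GRCm38.p6), read 5′ to 3′ on the gene's strand, at chr2:71117804-71118053 (plus strand) for *Cybrd1*, chr7:30944030-30944279 (minus strand) for *Hamp* and chr7:30924182-30924431 (minus strand) for *Hamp2*. Capitals mark GCGTG, a form of the hypoxia response core, and GGCGCC, the core bound by SMAD proteins in BMP signaling, in *Cybrd1*; GGCGCC and TTCTTGGAA, a motif of the STAT type, in *Hamp*; and the bases of *Hamp2* that align with the same places.
Cybrd1: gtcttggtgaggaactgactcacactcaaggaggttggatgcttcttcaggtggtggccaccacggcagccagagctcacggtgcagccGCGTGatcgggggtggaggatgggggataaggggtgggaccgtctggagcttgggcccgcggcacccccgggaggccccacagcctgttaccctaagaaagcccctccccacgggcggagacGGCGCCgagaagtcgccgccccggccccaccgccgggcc
Hamp: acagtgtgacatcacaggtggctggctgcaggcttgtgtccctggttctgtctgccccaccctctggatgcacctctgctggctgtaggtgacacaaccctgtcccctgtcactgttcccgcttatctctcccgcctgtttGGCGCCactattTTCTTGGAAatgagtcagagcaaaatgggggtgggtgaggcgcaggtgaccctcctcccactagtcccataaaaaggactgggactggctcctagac
Hamp2: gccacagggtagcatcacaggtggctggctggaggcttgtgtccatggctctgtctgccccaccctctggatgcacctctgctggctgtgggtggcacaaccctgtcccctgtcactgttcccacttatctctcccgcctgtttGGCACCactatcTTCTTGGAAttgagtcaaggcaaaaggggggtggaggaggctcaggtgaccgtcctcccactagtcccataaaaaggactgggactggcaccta

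In *Cybrd1* the GCGTG lies 161 to 157 bases and the GGCGCC 39 to 34 bases before the start. A window of this length holds ACGTG or GCGTG on either strand in 38.6% and GGCGCC in 9.59% of 32851 RefSeq promoter windows. Besides *Cybrd1*, the hypoxia core was in windows of *Tfr2*, *Tfrc* and *Fth1*, and GGCGCC in those of *Hamp* and *Tfrc*. The direct repeat of AGGTCA with 1 base between, the type of site bound by PPAR with RXR, was in 0.0335% of windows and the single AGGTCA in 14.0%, on either strand, and neither was in the window of a member. Windows were given for 7 of the 10 genes (not *Trf*, *Slc40a1* or *Slc11a2*). Such matches describe letters in a short window, and a window without a match says nothing of a factor's binding elsewhere.

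*Hamp* (probeset 10562169), the hepcidin gene, is raised by iron through BMP and SMAD signaling and by inflammation through IL-6 and STAT3, and is lowered by erythropoietic demand. It had the largest difference of the 10 genes and did not pass the test. Its log2 signal was 9.39, 9.48, 9.61, 11.00, 8.68 and 8.11 in *Ppara*-/- mice 1 to 6, against 7.44, 7.66, 6.46, 7.37, 10.01 and 7.51 in *Ppara*+/+ mice 1 to 6. All 6 *Ppara*-/- livers were above 5 of the *Ppara*+/+ livers, and *Ppara*+/+ mouse 5 was above 5 of the *Ppara*-/- livers. The means were 9.38 ± 0.98 in *Ppara*-/- and 7.74 ± 1.19 in *Ppara*+/+ livers (SD, n = 6 each), a difference of 1.64 (SE 0.53, 95% interval between 0.51 and 2.76; unadjusted p = 0.0074, limma adjusted p = 0.0765).

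The spread of *Hamp* within a genotype was among the widest of the array. Its highest and lowest signals differed 7.41-fold among *Ppara*-/- and 11.7-fold among *Ppara*+/+ livers, and only 10 of 19938 genes had a larger SD within genotypes. Leaving out 1 liver changed the call: without *Ppara*+/+ mouse 5 the difference was 2.09 (limma adjusted p = 0.0078). Over the other settings *Hamp* was also called among genes above the 50th percentile of mean signal (limma adjusted p = 0.0448) and within the 6 lowest animal numbers (9.44 in 2 *Ppara*-/- and 7.23 in 4 *Ppara*+/+ livers, difference 2.20, limma adjusted p = 0.0079). Within the 6 highest it averaged 9.35 in 4 *Ppara*-/- and 8.76 in 2 *Ppara*+/+ livers, a difference of 0.59 (limma adjusted p = 0.865), and whether the 2 differences differ was not tested. Female livers averaged 9.36 in *Ppara*-/- (n = 5) and 8.32 in *Ppara*+/+ (n = 3), and the sex score as covariate left 1.39 (limma adjusted p = 0.195).

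**Figure D3:**
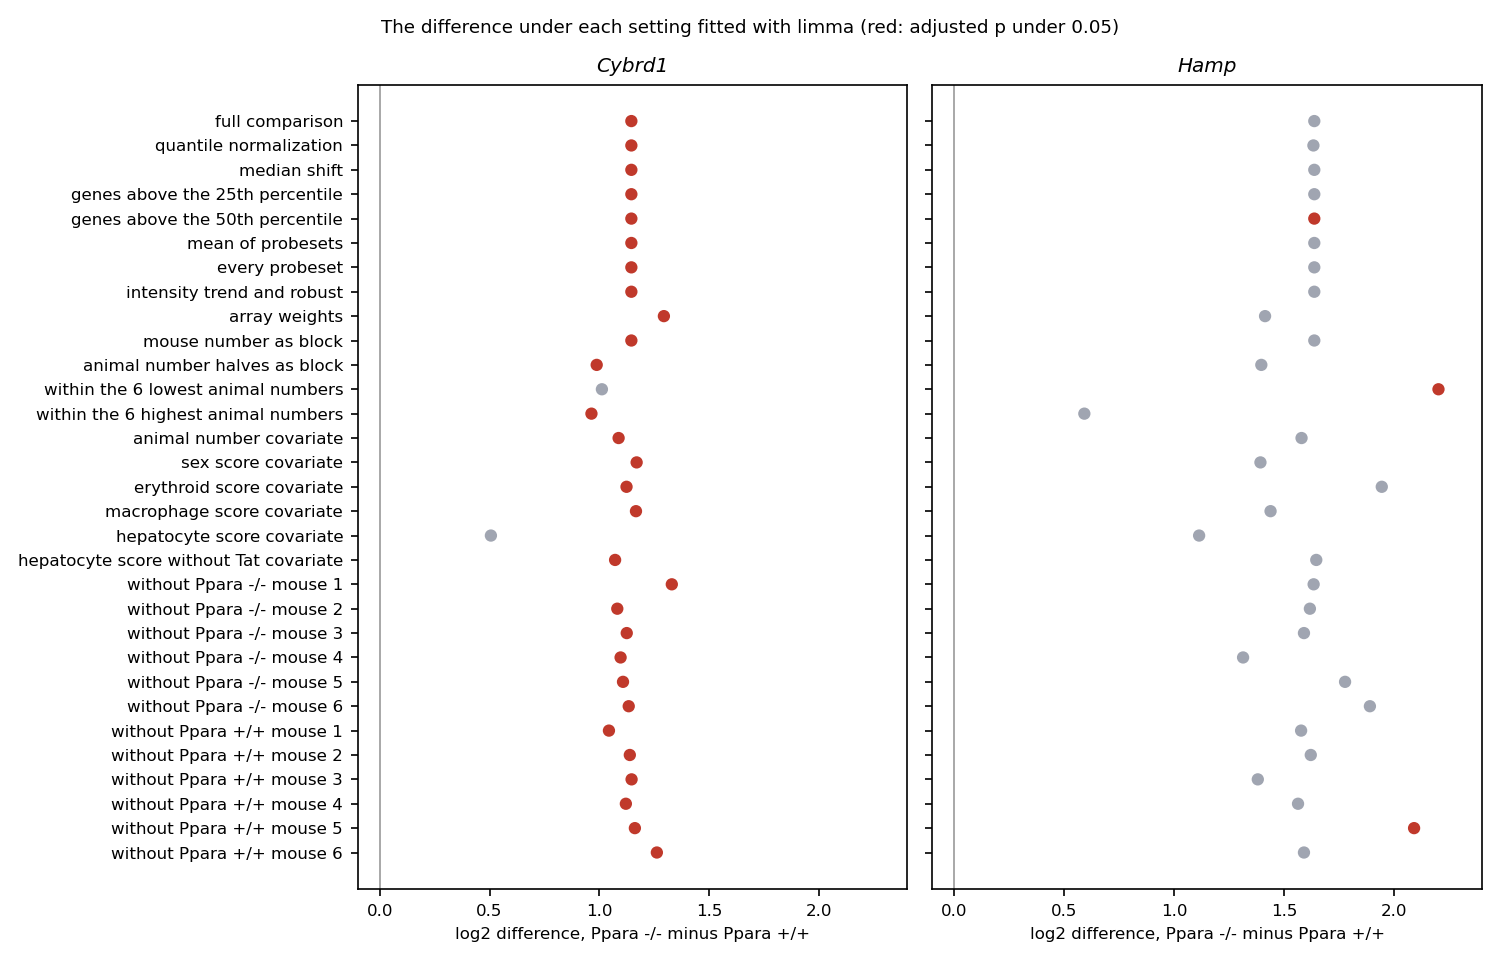
Difference in log2 signal of Cybrd1 (left) and Hamp (right), Ppara-/- minus Ppara+/+ livers, in the full comparison and in each other setting fitted with limma, in red where the adjusted p was under 0.05. Cybrd1 stays between 0.96 and 1.33 in every setting drawn except the hepatocyte score covariate (0.51), while Hamp ranges between 0.59 and 2.20 and is red in 3 settings.

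*Hamp2* (probeset 10562166) is a mouse duplicate of *Hamp* next to it on chromosome 7. Over 247 aligned promoter bases, 227 (91.9%) were identical, and within the GGCGCC of *Hamp* there was 1 difference, G106A, with the *Hamp* base first and the position counted back from the start of *Hamp*. TTCTTGGAA was in both, 97 to 89 bases before the start of *Hamp* and 94 to 86 before that of *Hamp2*, and in 0.365% of all windows. Transcripts and probes of the 2 copies were not aligned, and whether each probeset also reads the RNA of the other gene was not tested. *Hamp2* was 6.84, 7.09, 6.95, 6.81, 6.95 and 6.56 in *Ppara*-/- mice 1 to 6, against 6.39, 6.58, 6.80, 6.57, 6.68 and 6.67 in *Ppara*+/+ mice 1 to 6. All *Ppara*-/- livers but mouse 6, which was lowest of its genotype for *Hamp* too, were above every *Ppara*+/+ liver. At least 5 of 6 *Ppara*-/- livers above all *Ppara*+/+ livers occurred in 6.42% of all genes. The difference was 0.25 (means 6.87 ± 0.18 in *Ppara*-/- and 6.62 ± 0.14 in *Ppara*+/+ livers, SD, n = 6 each; 95% interval between 0.07 and 0.43), with a limma adjusted p of 0.0862. Without *Ppara*-/- mouse 6 it was 0.31 and was called (limma adjusted p = 0.0265).

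Over the 12 livers, *Hamp* and *Hamp2* had r = 0.51, and 0.16 for deviations from the genotype means. The genes picked as most like *Hamp* were *Wee2*, *Defb28* and *Olfm4* (each r = 0.89) and *Efhd2* and *Rilpl2* (each r = 0.86). Of those 5, *Olfm4*, which encodes a glycoprotein of neutrophils and gut epithelium, and *Rilpl2*, which acts in transport at the cilium, passed the test (higher in *Ppara*-/- livers by 0.22 and 0.27). With genotype means subtracted the closest were *Tbrg1* and *Wee2* (each r = 0.89), *Snx18* (r = 0.88), *Sprr1a* (r = 0.87) and *Ufm1* (r = 0.86), none of which passed the test. Granulocyte markers were called in 0 of 10 cases (2 at an unadjusted p under 0.05), with means of 10.64 to 10.85 in *Ppara*-/- and 10.58 to 10.84 in *Ppara*+/+ livers, and their mean had r = 0.59 with *Hamp* (0.46 for deviations). The macrophage mean had r = 0.53 with *Hamp* (0.54 for deviations), the hepatocyte mean -0.60 (-0.29) and *Tat* alone -0.63 (-0.32). With *Tat* left out, the hepatocyte mean had r = -0.14 with *Hamp* (0.01 for deviations). The part of these cells in the *Hamp* values was not tested.

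*Tfr2* (probeset 10526630), the transferrin receptor of hepatocytes and erythroid precursors that takes part in iron sensing, was 10.53, 10.28, 10.43, 10.29, 10.26 and 10.32 in *Ppara*-/- mice 1 to 6, against 10.64, 10.69, 10.65, 10.59, 10.40 and 10.27 in *Ppara*+/+ mice 1 to 6. *Ppara*+/+ mice 1 to 4 were above all 6 *Ppara*-/- livers, whereas *Ppara*+/+ mice 5 and 6 lay within their range. The means were 10.35 ± 0.11 in *Ppara*-/- and 10.54 ± 0.17 in *Ppara*+/+ livers (SD, n = 6 each), a difference of -0.19 (95% interval between -0.35 and -0.03; unadjusted p = 0.026, limma adjusted p = 0.162). It was called without *Ppara*+/+ mouse 6 (-0.24, limma adjusted p = 0.0321). Within the 6 highest animal numbers the mean of *Tfr2* was 10.32 in 4 *Ppara*-/- and 10.33 in 2 *Ppara*+/+ livers, and within the 6 lowest 10.41 in 2 *Ppara*-/- and 10.64 in 4 *Ppara*+/+ livers. The difference was 0.03 with the hepatocyte mean as covariate (limma adjusted p = 0.972) and -0.17 with *Tat* left out of that mean (limma adjusted p = 0.221). *Tat* had r = 0.94 with *Tfr2* (0.92 for deviations). The mean of 8 endothelial markers followed *Tfr2* as closely (r = 0.96, and 0.95 for deviations), and that of 5 megakaryocyte markers had r = 0.64 (0.82 for deviations). The endothelial mean was 9.21 to 9.34 in *Ppara*-/- and 9.20 to 9.46 in *Ppara*+/+ livers, with 0 of 8 markers called (2 at an unadjusted p under 0.05), and the part of these cells in the *Tfr2* values was not tested.

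*Tfrc* (probeset 10435075), which brings transferrin iron into dividing and erythroid cells and whose mRNA is stabilized when cells lack iron, averaged 11.41 ± 0.08 in *Ppara*-/- and 11.43 ± 0.10 in *Ppara*+/+ livers (SD, n = 6 each; difference -0.02, 95% interval between -0.14 and 0.10; limma adjusted p = 0.886). The range was 11.25 to 11.49 in *Ppara*-/- and 11.28 to 11.56 in *Ppara*+/+ livers. The lowest liver of each genotype, *Ppara*-/- mouse 4 (11.25) and *Ppara*+/+ mouse 5 (11.28), was the one with the highest *Hamp* of its genotype, and over the 12 livers *Tfrc* and *Hamp* had r = -0.70 (-0.81 for deviations). *Hfe* (probeset 10408227), whose loss causes hereditary hemochromatosis in humans, was 7.64 to 7.78 in *Ppara*-/- and 7.58 to 7.82 in *Ppara*+/+ livers, with a difference of 0.02 (95% interval between -0.09 and 0.12; limma adjusted p = 0.905).

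Differences in the signals of the plasma carrier and the storage protein were close to 0. *Trf* (probeset 10596148), the plasma carrier made by hepatocytes, was 13.58 to 13.62 in *Ppara*-/- and 13.53 to 13.62 in *Ppara*+/+ livers, with a difference of 0.01 (95% interval between -0.06 and 0.09; limma adjusted p = 0.890). *Fth1* (probeset 10461402), the ferritin heavy subunit that oxidizes iron for storage, was 13.03 to 13.08 in *Ppara*-/- and 13.00 to 13.11 in *Ppara*+/+ livers, with a difference of 0.01 (95% interval between -0.06 and 0.09; limma adjusted p = 0.891). Both lay near the top of the array's range (highest value 13.91), at the 99.99th percentile of mean signal for *Trf* and the 99.86th for *Fth1*. Genes of other plasma proteins at that level had as small a spread, with an SD within genotypes of 0.02 for *Ttr* and 0.03 for *Ahsg*. Whether signals this high can still follow RNA levels was not tested, and the narrow intervals do not show that these RNAs were steady.

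*Slc40a1* (probeset 10354374), the exporter that hepcidin removes at the protein level, was 11.22 to 11.30 in *Ppara*-/- and 11.15 to 11.40 in *Ppara*+/+ livers, with a difference of -0.03 (95% interval between -0.13 and 0.06; limma adjusted p = 0.768). *Slc11a2* (probeset 10432573), the divalent metal transporter that takes up ferrous iron, was 9.16, 9.12, 9.15, 8.92, 9.01 and 9.23 in *Ppara*-/- mice 1 to 6, against 9.22, 9.23, 9.32, 9.08, 9.09 and 9.16 in *Ppara*+/+ mice 1 to 6. In 2 of 6 *Ppara*-/- livers it was below every *Ppara*+/+ liver, and the other 4 overlapped. The difference was -0.08 (95% interval between -0.21 and 0.04; limma adjusted p = 0.479). *Slc11a2* ran opposite to *Hamp* over the 12 livers (r = -0.72, and -0.65 for deviations), with *Ppara*-/- mouse 4 lowest.

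Beyond the 10 genes, 78 further genes of iron biology were measured of 83 listed, and 6 of them were higher and 5 lower in *Ppara*-/- livers, beside 3.42% and 3.82% of all genes, while 67 did not pass the test. Their median difference was 0.0009 and the median size 0.08, beside 0.01 and 0.07 over all genes. An unadjusted p under 0.05 (limma) was reached by 29 of the 78, against 20.9% of all genes. The 9 other ferrireductases and cytochrome b561 proteins, the closest relatives of *Cybrd1* in activity, had 0 called (3 at an unadjusted p under 0.05). The smallest p among them was that of *Frrs1*, a ferric reductase with a b561 domain, at 10.89 in *Ppara*-/- and 10.75 in *Ppara*+/+ livers (difference 0.14, limma adjusted p = 0.0632). *Steap3*, the endosomal reductase of erythroid cells, differed by 0.01.

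**Figure D4:**
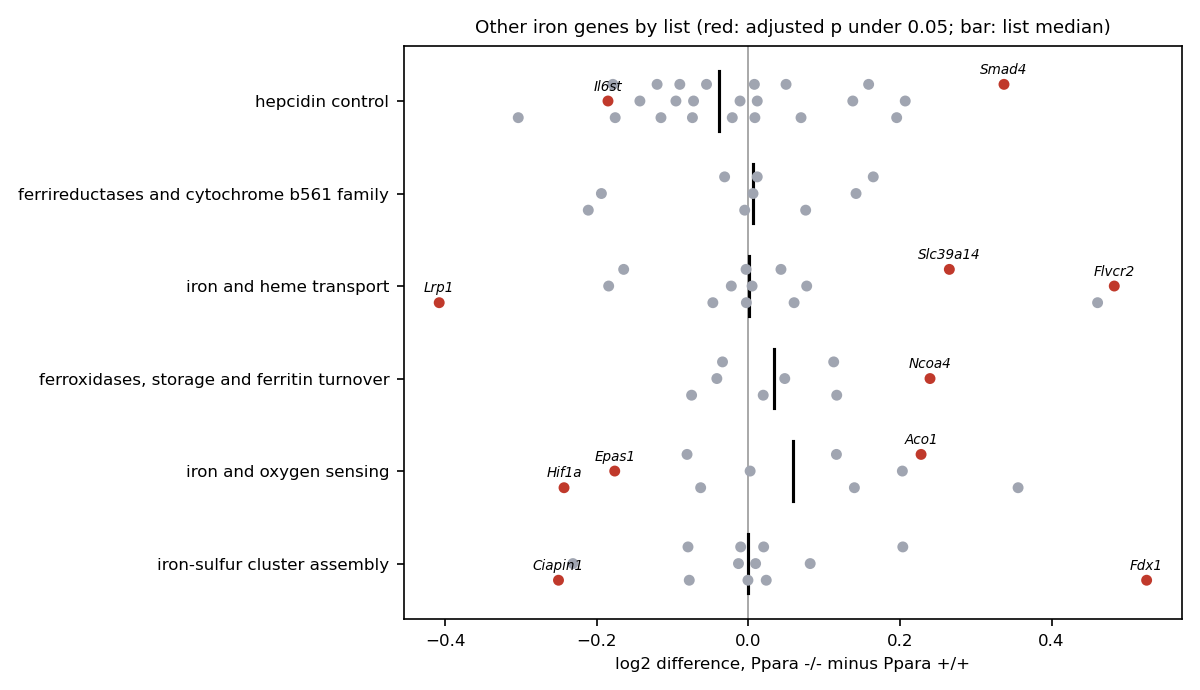
Difference in log2 signal, Ppara-/- minus Ppara+/+ livers (n = 6 each), of the 78 other iron genes in 6 lists, 1 point per gene, in red where the limma adjusted p was under 0.05 and with a black bar at each list's median. Red points lie on both sides of 0 and the medians lie between -0.04 and 0.06.

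Among 24 measured genes that control hepcidin, 1 was higher, 1 lower and 22 did not pass the test, beside 3.42% higher and 3.82% lower of all genes. An unadjusted p under 0.05 was reached by 9 of the 24, against 20.9% of all genes. *Smad4*, the shared SMAD that carries BMP signals to *Hamp*, averaged 10.20 ± 0.19 in *Ppara*-/- and 9.86 ± 0.08 in *Ppara*+/+ livers (SD, n = 6 each; difference 0.34, limma adjusted p = 0.0153). *Il6st*, the signaling subunit of the IL-6 receptor, averaged 10.61 in *Ppara*-/- and 10.79 in *Ppara*+/+ livers (difference -0.19, limma adjusted p = 0.0367). Of genes that BMP signaling induces beside *Hamp*, *Id1* differed by -0.14 (95% interval between -0.27 and -0.01; unadjusted p = 0.034, limma adjusted p = 0.190). The differences were -0.09 for *Smad6*, 0.01 for *Smad7* and -0.12 for *Atoh8*. None of these genes passed the test, nor did *Bmp6*, the ligand that liver endothelium makes under iron load (difference 0.01, 95% interval between -0.21 and 0.23). *Erfe*, the erythroblast hormone that lowers hepcidin, differed by -0.07 (95% interval between -0.40 and 0.26), and *Tmprss6*, the protease that lowers it in hepatocytes, by 0.07 (95% interval between -0.04 and 0.18).

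Of 14 measured iron and heme transport genes, 2 were higher, 1 lower and 11 did not pass the test, beside 3.42% higher and 3.82% lower of all genes. An unadjusted p under 0.05 was reached by 5 of the 14, against 20.9% of all genes. *Slc39a14*, the importer of iron that is not bound to transferrin in hepatocytes, was 9.96, 10.02, 10.11, 10.08, 10.07 and 9.99 in *Ppara*-/- mice 1 to 6, against 9.72, 9.82, 9.77, 9.61, 9.86 and 9.86 in *Ppara*+/+ mice 1 to 6. All 6 *Ppara*-/- livers were above every *Ppara*+/+ liver, as for 1.3% of all genes (difference 0.27, limma adjusted p = 0.0053). *Lrp1*, the receptor that clears hemopexin with its heme, was 10.39 to 10.68 in *Ppara*-/- and 10.80 to 11.00 in *Ppara*+/+ livers, without overlap, as for 2.29% of all genes in that direction (difference -0.41, limma adjusted p = 6.5e-04). *Flvcr2*, a transporter first described for heme, averaged 9.42 ± 0.32 in *Ppara*-/- and 8.94 ± 0.15 in *Ppara*+/+ livers (SD, n = 6 each; difference 0.48, limma adjusted p = 0.0325).

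Of 8 ferroxidases and storage genes, 1 was higher and 0 lower, beside 3.42% and 3.82% of all genes. An unadjusted p under 0.05 was reached by 2 of the 8, against 20.9% of all genes. The higher gene was *Ncoa4*, the receptor that delivers ferritin to lysosomes (12.01 ± 0.11 in *Ppara*-/- and 11.77 ± 0.07 in *Ppara*+/+ livers, SD, n = 6 each; difference 0.24, limma adjusted p = 0.0178). Of 10 iron and oxygen sensors, 1 was higher and 2 lower (6 at an unadjusted p under 0.05), beside the same shares of all genes. *Aco1*, the cytosolic aconitase that becomes an iron regulatory protein when it lacks its iron-sulfur cluster, averaged 11.51 in *Ppara*-/- and 11.28 in *Ppara*+/+ livers (difference 0.23, limma adjusted p = 0.0196). The hypoxia-inducible factors fell to 9.88 in *Ppara*-/- livers, against 10.06 in *Ppara*+/+ livers, for *Epas1* (difference -0.18, limma adjusted p = 0.048) and to 9.86 in *Ppara*-/- livers, against 10.10 in *Ppara*+/+ livers, for *Hif1a* (difference -0.24, limma adjusted p = 0.0454). Of 13 measured iron-sulfur assembly genes, *Fdx1*, a mitochondrial ferredoxin, was higher (8.93 ± 0.27 in *Ppara*-/- and 8.40 ± 0.23 in *Ppara*+/+ livers, SD, n = 6 each; difference 0.53, limma adjusted p = 0.022) and *Ciapin1*, of the cytosolic assembly machinery, lower (difference -0.25, limma adjusted p = 0.026). Of those 13, 4 had an unadjusted p under 0.05.

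The 11 calls differed in how far they held over other settings. *Ppara*-/- mouse 1 was the *Ppara*-/- liver nearest the *Ppara*+/+ mean in 10 of the 11 genes, beside 62.4% of all 1443 called genes. *Ppara*+/+ mouse 6 was the *Ppara*+/+ liver nearest the *Ppara*-/- mean in 8, beside 56.0% of all called genes. Over the 31 other settings, *Lrp1* lost its call in 3, *Slc39a14* and *Smad4* in 4 each, and *Ncoa4* in 5. *Aco1* lost it in 8, *Ciapin1* in 11, *Fdx1* in 13, *Flvcr2* in 16, *Epas1* and *Il6st* in 17 each and *Hif1a* in 19. With the hepatocyte mean as covariate, 1 of the 78 was called, and it was *Lrp1* (difference -0.27, limma adjusted p = 0.0444), whereas 7 were called with *Tat* left out of that mean.

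**Figure D5:**
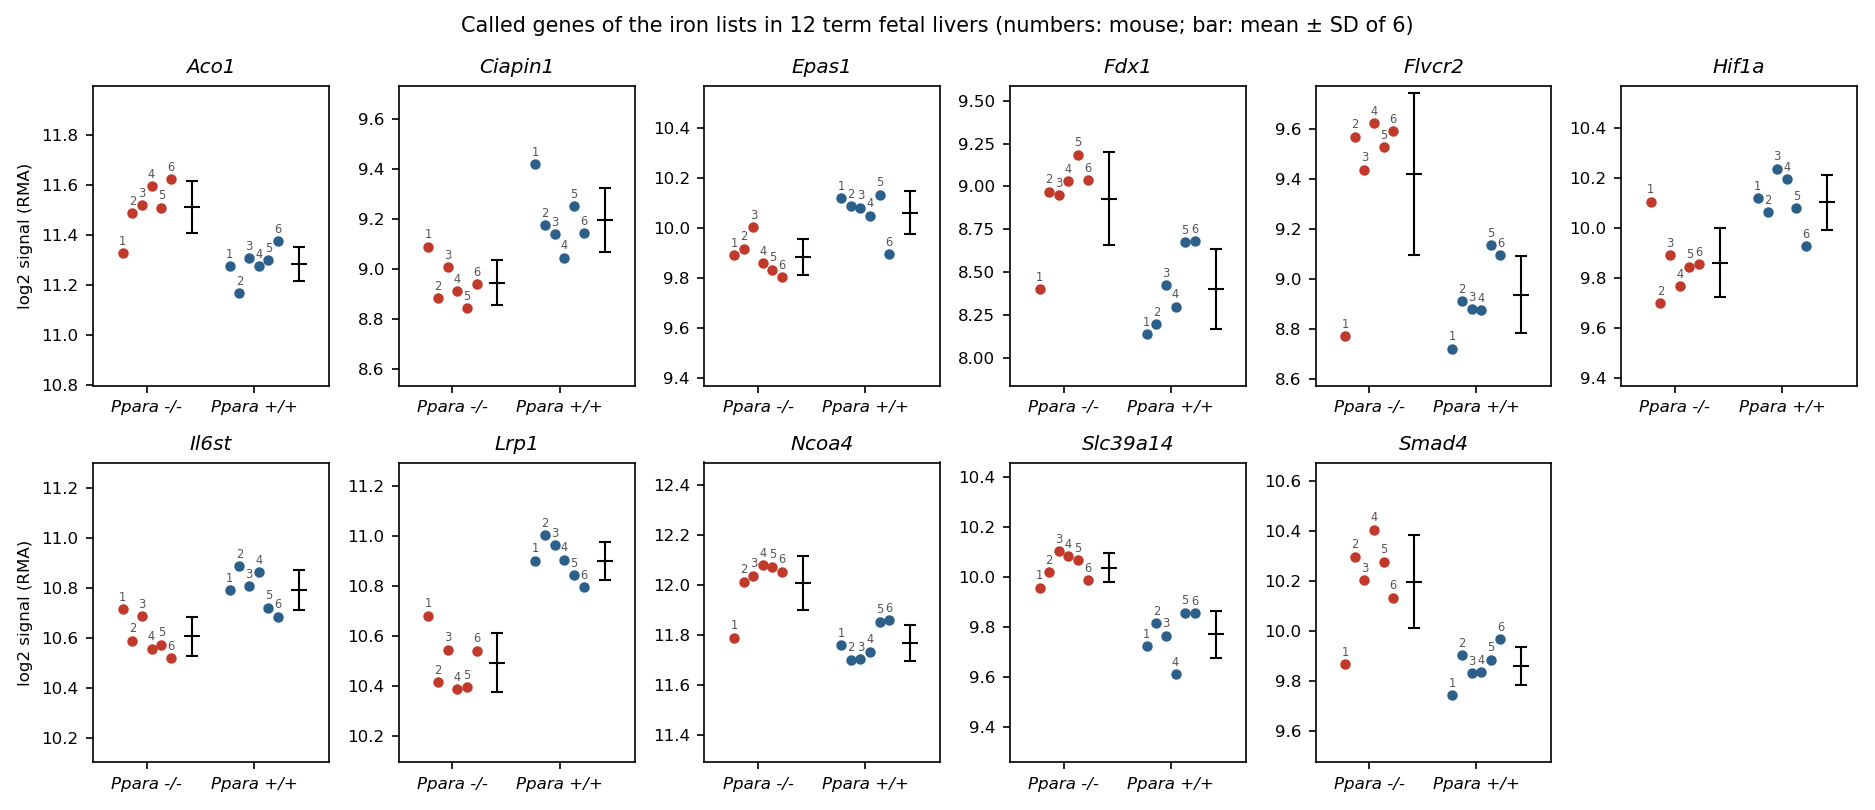
Log2 signal of the 11 called genes of the iron lists in 6 Ppara-/- (left, red) and 6 Ppara+/+ (right, blue) livers, 1 point per liver with its mouse number, and bars for the mean ± SD. The y axes differ between genes. Ppara-/- mouse 1 lies nearest the Ppara+/+ mean in 10 of the 11 genes (62.4% of all called genes), and Slc39a14 and Lrp1 show no overlap between the genotypes.

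Macrophages recycle iron from red cells and use the same exporter as hepatocytes. Of their 14 markers 2 were higher in *Ppara*-/- livers and 1 lower, beside 3.42% and 3.82% of all genes, while 11 did not pass the test. The median difference of the 14 was -0.04. *Csf1r*, the receptor for macrophage growth factors, differed by 0.23 (limma adjusted p = 0.0096), *Cd5l*, a secreted macrophage protein, by 0.40 (limma adjusted p = 0.0413), and *Fcgr1*, an antibody receptor, by -0.25 (limma adjusted p = 0.021). Their part in the values of the iron handling genes was not tested beyond the macrophage covariate.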

How the data were processed

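Total RNA was taken from 12 whole livers, 1 array each. The log2 values deposited by the authors are RMA output, that is, background-corrected, normalized between arrays and summarized per probeset. The build was not stated. The table held 35556 probesets (log2 1.95 to 13.91, array medians 6.71 to 6.75, correlations between arrays 0.9882 to 0.9955), with no read depth, so that the number of arrays limits precision. A platform table gave 1 symbol to 21789 probesets, several to 1621 and none to 12146, and 21698 matched the RefSeq gene table by gene ID. For 999 genes with over 1 probeset the highest mean was taken, with no filter.

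Genotypes came from the labels. Two-sided tests used limma 3.58.1 (lmFit, then eBayes) under R 4.3.3, without covariates, and adjusted by Benjamini-Hochberg over 19938 genes at 0.05. Shared litters were not modeled, which p-values do not allow for. The members, lists and settings were chosen with earlier results of these data known. The genes named were all members, *Ppara*, each called gene of the iron lists or the one with the smallest p, and the 5 genes most like *Cybrd1* and *Hamp* by each measure. Other genes were named after their values were seen, namely *Steap3*, the hepcidin regulators with no call and the markers. Likeness left out predicted and small RNA genes.

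Other settings were renewed quantile normalization, a median shift, filters at the 25th and 50th percentile, mean or single probesets, an intensity trend with robust eBayes, array weights, mouse number as block, animal numbers as covariate, block or split, sex, erythroid and macrophage scores as covariates, leave-one-out fits and an exact Mann-Whitney test. Hepatocyte scores with and without *Tat* were added after the data were seen, as was the search for TTCTTGGAA. Promoter letters came from RefSeq (GRCm38.p6, 27025 genes), and alignment used Biopython 1.88, with tables by pandas 2.3.3 in Python 3.11.15 and plots by matplotlib 3.10.9. The CAGTGN loop of iron-responsive elements was searched only in the 50 bases after the start. It was in 7.08% of windows and, among the members with a window, in a window of *Tfr2* alone, which also had windows without it. So short a search does not reach the rest of an RNA, and a member without a match may still carry such an element. On simulated arrays of 19938 genes with known changes, limma recovered 15 of 50 genes changed by 0.2, 43 of 50 by 0.5, 49 of 50 by 1 and 50 of 50 by 2, and called 7 unchanged genes. Each simulated gene was drawn independently from a normal distribution with its own mean and SD. Shared litters and genes that vary together were left out, so that these counts check the fit and do not give the error rate of the real calls.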

Additional observations from a re-analysis of the deposited data

Results flagged for a closer look

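Each genotype's 6 livers were checked for 1 liver far from the others in the 10 iron handling genes, the 11 called genes of the iron lists and *Ppara*. Of 44 such groups 7 had one. About 1 in 20 would be expected of independent groups with normal values, but these groups were genes read in the same 12 livers. The count is therefore not a test against chance. *Ppara*-/- mouse 1 stood apart 4 times, in *Cybrd1* at 7.58 (other *Ppara*-/- livers 8.56 to 8.82), *Flvcr2* at 8.77 (9.44 to 9.62), *Fdx1* at 8.40 (8.95 to 9.19) and *Ncoa4* at 11.79 (12.01 to 12.08). *Ppara*-/- mouse 4 stood apart in *Tfrc* at 11.25 (11.40 to 11.49). Among *Ppara*+/+ livers, mouse 5 stood apart in *Hamp* at 10.01 (6.46 to 7.66) and mouse 6 in *Epas1* at 9.89 (10.05 to 10.13).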

How the results depend on the processing

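*Cybrd1* was called in 28 of 31 other settings, *Ppara* in 30 and *Hamp* in 3, where the settings reuse the same livers and are not independent tests. The count of 1 called among the 10 genes was 2 with the animal number as covariate, 2 with array weights (both with *Tfr2*), 2 among genes above the 50th percentile (with *Hamp*), 0 in the exact Mann-Whitney test, 0 with the hepatocyte score, and 1 to 2 when a liver was left out (2 without *Ppara*-/- mouse 6, *Ppara*+/+ mouse 5 or *Ppara*+/+ mouse 6). Within the 6 lowest animal numbers the 1 called gene was *Hamp*, in place of *Cybrd1*. The 11 of 78 other iron genes became 6 with low against high animal numbers as block, 20 with array weights, 7 with the erythroid score, 1 with the hepatocyte score, 7 with that score without *Tat*, 4 with the sex score, 1 within the highest and 0 within the lowest animal numbers, 0 in the Mann-Whitney test, and 4 to 22 when a liver was left out (22 without *Ppara*-/- mouse 1).

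Over all genes the 1443 calls became 936 with low against high animal numbers as block, 2743 with array weights, 942 with the erythroid score, 218 with the hepatocyte score, 1165 with that score without *Tat*, 850 with the sex score, 223 within the highest and 193 within the lowest animal numbers, 0 in the Mann-Whitney test (3686 at an unadjusted p under 0.05, the smallest possible p being 0.00216), and 851 to 2521 when a liver was left out (2521 without *Ppara*-/- mouse 1). Mouse numbers were not used to pair the livers. The labels tie no number to a litter, and although deviations of same-numbered livers correlated above 0 in each pair (0.0194 to 0.39), they did so over 0.1 in 4 of 6 pairs, so that pairing was neither shown nor shown absent, while 3 of 6 *Ppara*-/- livers correlated best with their own number. With the mouse number as block 1619 genes, 14 of the 78 and 1 of the 10 were called.

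Signs turned only in members not called. *Hfe* was -0.0082 with array weights, -0.0104 within the lowest animal numbers and -0.0058 without *Ppara*+/+ mouse 6. *Slc40a1* was 0.0365 within the highest animal numbers and 0.0498 with the hepatocyte score, and *Tfr2* was 0.0287 with that score, and both kept their sign with *Tat* left out of it. *Tfrc* was 0.0124 with low against high animal numbers as block, 0.0585 with the hepatocyte score, 0.0033 with the sex score, 0.0502 within the highest animal numbers, 0.0089 without *Ppara*-/- mouse 4 and 0.0041 without *Ppara*+/+ mouse 3. With 1 liver left out, *Hfe* ranged up to 0.0426 and *Tfrc* down to -0.0514. The cause was not tested.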
